A study of Mus musculus with 20 samples.

Results

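The genes described here are 10 parts of the signalling route that runs from cytokine receptors built on gp130 to the transcription factor STAT3. They were chosen by name from the 24513 genes counted in each library: the receptor genes Osmr, Lifr, Il6st, Il6ra and Cntfr, the kinase genes Jak1 and Jak2, Stat3 itself, and 2 genes that are known to respond to it, Socs3 and Bcl3. That choice, and that of the gene lists used below, was made with earlier results of these data known. RNA with a polyA tail was measured in the hippocampus of male C57BL/6J mice aged 9 months. There were 5 libraries in each of 4 genotypes, which are WT, PS19, C3aR KO and the combination PS19/C3aR KO. PS19 mice carry a human tau transgene with a mutation that causes a familial tauopathy, placed under the mouse prion protein promoter, so that neurons make most of it. C3aR KO mice were made to lack the receptor for the complement fragment C3a, which in brain is found mainly on microglia. All 20 libraries share strain, sex, age and tissue, and the comparisons ask how this route stands in the tau transgenic hippocampus and whether it differs with C3aR genotype. Nothing in the labels ties each library to its own animal, so a p-value here sets a difference against the scatter of these libraries, some of which may be technical.

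Cytokines of the interleukin 6 family bind a receptor specific to each of them and then gp130, the shared subunit encoded by Il6st. JAK kinases bound to the receptors phosphorylate STAT3, which enters the nucleus and switches on genes such as Socs3, whose product binds gp130 and the JAK kinases and shuts the signal off. In the injured brain this route is known for its part in astrocyte reactivity, in which the filament gene Gfap is induced. Phosphorylation was not measured here, and RNA levels do not report it.

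The sequences upstream of the transcription start are shown for Stat3, Socs3 and Bcl3, the gene for the transcription factor and those for its known responders, because all 3 were higher in PS19 than in WT libraries. They were read from RefSeq (GRCm38.p6) and run 5′ to 3′ on the minus strand, which is the strand of all 3 genes. Each is the longest stretch of the 250 bases upstream of the start that lies outside every GENCODE exon. Capitals mark a match to TTCNNNGAA, the palindrome bound by STAT dimers.
Stat3, chr11:100939541-100939790: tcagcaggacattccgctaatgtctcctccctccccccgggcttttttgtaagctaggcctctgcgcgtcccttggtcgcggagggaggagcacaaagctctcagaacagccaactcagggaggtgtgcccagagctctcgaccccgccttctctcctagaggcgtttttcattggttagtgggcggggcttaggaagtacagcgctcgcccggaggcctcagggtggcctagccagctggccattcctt
Socs3, chr11:117969452-117969616: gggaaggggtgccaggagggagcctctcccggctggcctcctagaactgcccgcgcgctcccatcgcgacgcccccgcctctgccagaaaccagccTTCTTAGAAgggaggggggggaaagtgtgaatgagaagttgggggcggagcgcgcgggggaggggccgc
Bcl3, chr7:19822771-19823005: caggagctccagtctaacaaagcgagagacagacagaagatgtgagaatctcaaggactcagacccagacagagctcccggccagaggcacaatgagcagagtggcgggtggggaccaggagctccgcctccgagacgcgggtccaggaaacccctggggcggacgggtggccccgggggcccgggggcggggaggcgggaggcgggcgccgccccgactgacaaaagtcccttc
The Socs3 match lies 154 to 146 bases upstream of the start. Both strands of the 250 bases upstream of each start were searched, and Socs3 was the only one of the 10 genes with this match in its 16 windows in all. Of all 32851 RefSeq promoter windows of that length, 7.02% held a match. The AP-1 motif TGANTCA stood in 6.75% of all windows and in none of the 10 genes', and the NF-kB motif stood in 7.25% of all windows and in 1 of 6 Cntfr windows. A match is a string of letters and no proof of binding, and the absence of one says nothing beyond these windows.

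Gene counts came to 33885850 to 47828111 per library, and all 10 genes passed the filter on low counts along with 16647 others. C3ar1, the gene named by the C3aR KO label, did not fall in the libraries that carry it: it stood at 1.73 to 2.42 CPM, which are counts scaled to a common library size, in WT and at 14.1 to 17.98 CPM in the libraries labelled C3aR KO. Counts are summed over all exons, so they do not show whether the deleted piece was transcribed, and directions involving that genotype are given for the labelled libraries. Prnp, whose promoter drives the tau transgene, was at 825 to 949 CPM in WT and 1838 to 1917 CPM in PS19, with no overlap. The share of gene counts taken by Rn45s, the 45S ribosomal RNA gene, varied between libraries, and Rn45s was called in no comparison. The share ranged from 2.85 to 4.48% in WT, against 0.873 to 3.65% for PS19, 0.923 to 4.34% for libraries labelled C3aR KO and 1.03 to 3.03% for PS19/C3aR KO. PS19 library 5 had the highest Rn45s share of its group and the lowest level of C3ar1, Gfap, Vim, Aif1 and Cx3cr1, while its Prnp level was within the narrow PS19 range.

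The route was higher in PS19 than in WT hippocampus at 4 points: the oncostatin M receptor gene Osmr, Stat3, Socs3 and Bcl3. Osmr was 4.24-fold, Bcl3 6.57-fold, Socs3 2.61-fold and Stat3 1.56-fold higher. The kinase genes and the receptor genes Lifr and Cntfr had log2 fold changes between -0.09 and 0.12, and none of them passed the test. By edgeR's quasi-likelihood test with Benjamini-Hochberg adjustment over 16657 genes, 4 of the 10 genes rose and 0 fell. Over all genes 10.8% were called in either direction and 7.5% were called higher. As the genes were chosen with earlier results of these data known, these shares serve as a description. The median log2 fold change was 0.37 over the 10 genes and -0.0068 over all genes tested.

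**Figure D1:**
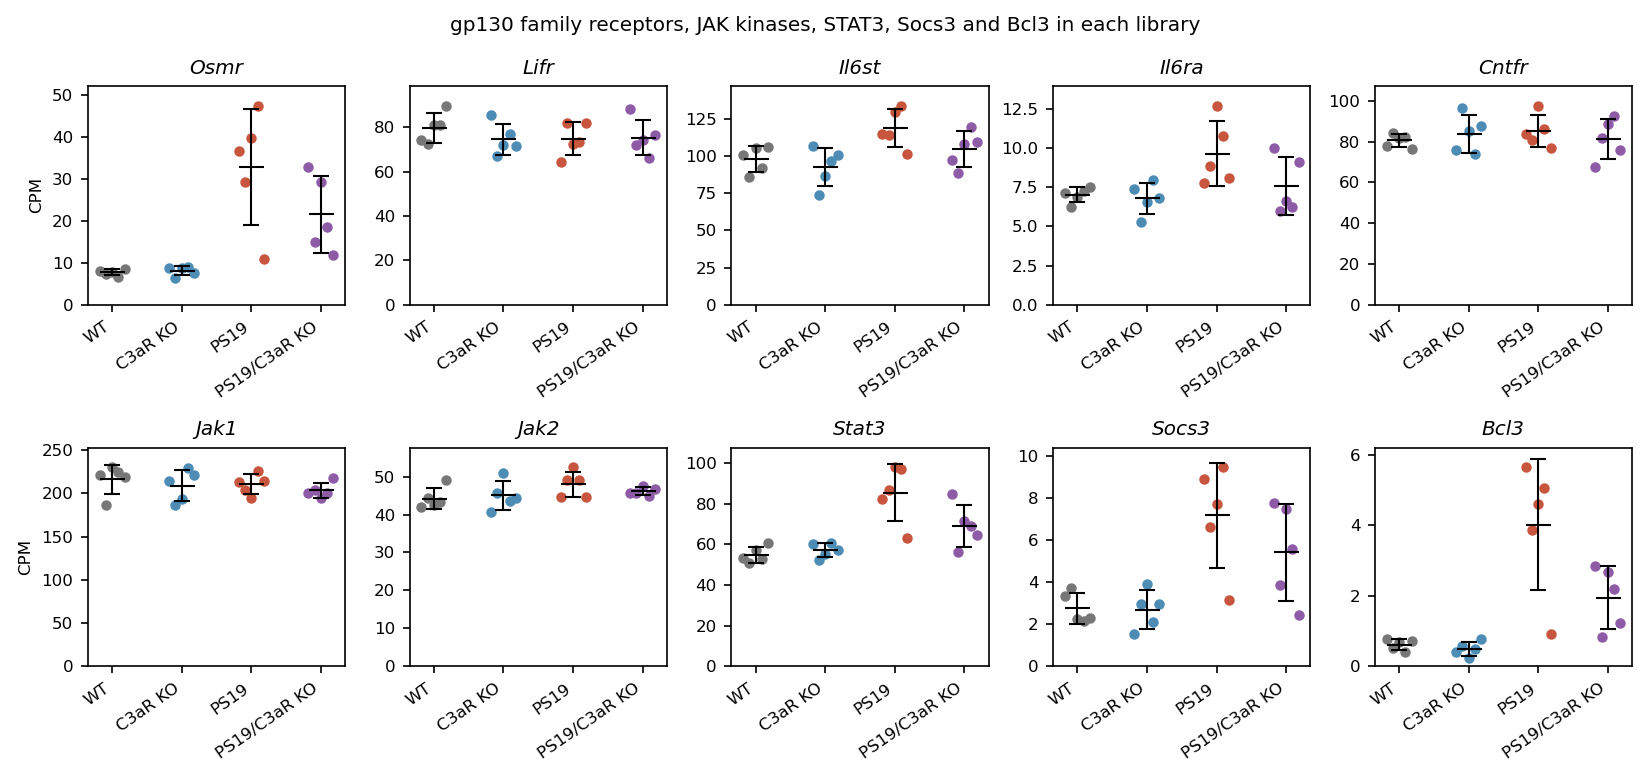
CPM of the 10 genes (y axis, from 0) in each of 20 libraries, grouped by genotype on the x axis. Points are libraries, and the black bar is the mean ± SD of 5 libraries; Osmr reached 29.3 to 47.5 CPM in 4 PS19 libraries against 6.72 to 8.60 in WT, and the remaining PS19 library stood at 10.97.

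Osmr (chr15:6813568-6874968, minus strand) encodes the subunit that makes gp130 into a receptor for oncostatin M. It was at 8.07, 7.44, 7.92, 6.72 and 8.60 CPM in WT libraries 1 to 5 and at 36.7, 29.3, 39.8, 47.5 and 10.97 CPM in PS19 libraries 1 to 5. Every PS19 value was above the highest WT value, and library 5 lay far below the other 4. The log2 fold change was 2.08 ± 0.31 (SE), with an adjusted p of 0.000354 by edgeR. As hippocampus is a mixture, more cells of a type that makes the transcript and more transcript per cell cannot be told apart, here or for any gene below.

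Lifr (chr15:7090610-7197489, plus strand), the receptor gene for leukemia inhibitory factor, lies 215.6 kb from Osmr with no protein-coding gene between them. It was at 74.5, 72.3, 81.0, 80.9 and 89.7 CPM in WT and at 64.4, 82.1, 72.6, 73.3 and 81.8 CPM in PS19. The groups overlapped, with a log2 fold change of -0.09 ± 0.083 (SE). Set against its neighbour within each library, Osmr stood apart between the genotypes: the mean log2 ratio of their CPM was -3.36 ± 0.14 (SD, n = 5) in WT and -1.34 ± 0.93 (SD, n = 5) in PS19. That difference of 2.03 had a two-sided exact permutation p of 0.00794, which is the smallest that 5 against 5 libraries allow. After Benjamini-Hochberg adjustment over 4 such tests the p was 0.0159. Osmr alone already had no overlap between these groups and Lifr differed little, so the ratio repeats the Osmr result.

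Il6st (chr13:112464070-112506860, plus strand), which encodes gp130, was at 100.7, 85.8, 105, 92.0 and 106 CPM in WT and at 115, 114, 129.9, 134 and 102 CPM in PS19. Only PS19 library 5 lay within the WT range. Its log2 fold change was 0.28 ± 0.10 (SE), and the adjusted p by edgeR was 0.0806, short of the threshold. Without PS19 library 5 it was 0.33 with an adjusted p of 0.0351, and without library 2 labelled C3aR KO the adjusted p was 0.048. Over all fits with 1 library left out, edgeR's adjusted p ran from 0.0351 to 0.193. With each library's Rn45s share as a covariate it was 0.293.

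Il6ra (chr3:89869324-89913196, minus strand) encodes the receptor subunit that binds interleukin 6. It was at 7.12, 6.27, 6.91, 7.28 and 7.53 CPM in WT and at 7.75, 8.87, 12.7, 10.8 and 8.09 CPM in PS19. The groups did not overlap, though the lowest PS19 library was close to the highest WT library. Il6ra shares 242 exonic bases with Gm42809 in GENCODE, so reads there cannot be assigned without the strand. Il6ra had a log2 fold change of 0.46 ± 0.16 (SE) with an adjusted p of 0.0683 by edgeR, and 0.0396 by DESeq2. Without PS19 library 5 edgeR's adjusted p was 0.0439, and without PS19/C3aR KO library 1 it was 0.047. Over all fits with 1 library left out, edgeR's adjusted p ran from 0.0439 to 0.209. With the Rn45s share as a covariate it was 0.232. Cntfr (chr4:41657498-41697091, minus strand), the receptor gene for ciliary neurotrophic factor, ranged from 76.6 to 84.3 CPM in WT and from 77.1 to 97.5 CPM in PS19, with a log2 fold change of 0.08 ± 0.083 (SE).

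The kinase genes differed little between the genotypes. Jak1 (chr4:101151974-101265282, minus strand) ranged from 187 to 230.1 CPM in WT and from 194 to 226 CPM in PS19, and Jak2 (chr19:29251803-29313095, plus strand) from 42.0 to 49.0 and from 44.6 to 52.4 CPM. Their log2 fold changes were -0.04 ± 0.062 (SE) and 0.12 ± 0.058 (SE), with adjusted p of 0.767 and 0.217 by edgeR. Each library held at least 1368 counts of either gene.

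Stat3 (chr11:100886806-100939594, minus strand) was at 53.2, 50.6, 57.4, 52.7 and 60.5 CPM in WT and at 82.5, 86.6, 97.9, 97.1 and 63.2 CPM in PS19. No PS19 value was as low as any WT value, and library 5 came closest. The log2 fold change was 0.64 ± 0.11 (SE), with an adjusted p of 0.000856 by edgeR. Stat3 shares 72 exonic bases with its neighbour Stat5a in GENCODE, and the strand setting of the counting is not given in the sources used here.

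Socs3 (chr11:117966079-117970336, minus strand) encodes the feedback inhibitor whose promoter holds the STAT match shown above. It was at 3.34, 3.71, 2.25, 2.13 and 2.29 CPM in WT and at 8.89, 6.60, 7.72, 9.44 and 3.13 CPM in PS19. PS19 library 5 lay inside the WT range and the other 4 lay well above it. Socs3 had a log2 fold change of 1.38 ± 0.33 (SE), with an adjusted p of 0.00904 by edgeR. With each library's Rn45s share as a covariate it was 0.82 with an adjusted p of 0.27, and the call was lost.

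Bcl3 (chr7:19808462-19822824, minus strand) encodes an atypical IkB protein that acts in the nucleus with NF-kB subunits. It was at 0.77, 0.51, 0.68, 0.40 and 0.70 CPM in WT, from 15 to 27 counts per library, and at 5.64, 3.85, 4.61, 5.06 and 0.92 CPM in PS19. The groups did not overlap, and PS19 library 5 was close to WT. The log2 fold change of 2.72 ± 0.42 (SE) was the highest of the 10 genes and had an adjusted p of 0.000508 by edgeR. Bcl3 shares 161 exonic bases with Gm16175 in GENCODE, so reads there cannot be assigned without the strand.

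Groups without overlap were found for 4 of the 10 genes, Stat3, Osmr, Il6ra and Bcl3, against 9.04% of all genes tested. With the Rn45s share as a covariate 3 of the 10 remained called, Stat3 (0.56, adjusted p of 0.0298 by edgeR), Osmr (1.83, adjusted p of 0.0204) and Bcl3 (2.04, adjusted p of 0.0477), while 2.59% of all genes were called. Cell type markers moved as well. All 12 microglial markers rose, with a summed level of 378 to 410 CPM in WT and 515 to 1010 CPM in PS19. Of 12 astrocyte markers 8 rose and 0 fell, with a sum of 7830 to 8220 CPM in WT and 8620 to 11500 CPM in PS19. Of 10 neuronal markers 3 fell, from 7780 to 8480 CPM in sum in WT to 6800 to 7820 CPM in PS19. No defining marker of these 3 lists was at 0 in any group. The part of these markers in the results above was not tested.

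**Figure D2:**
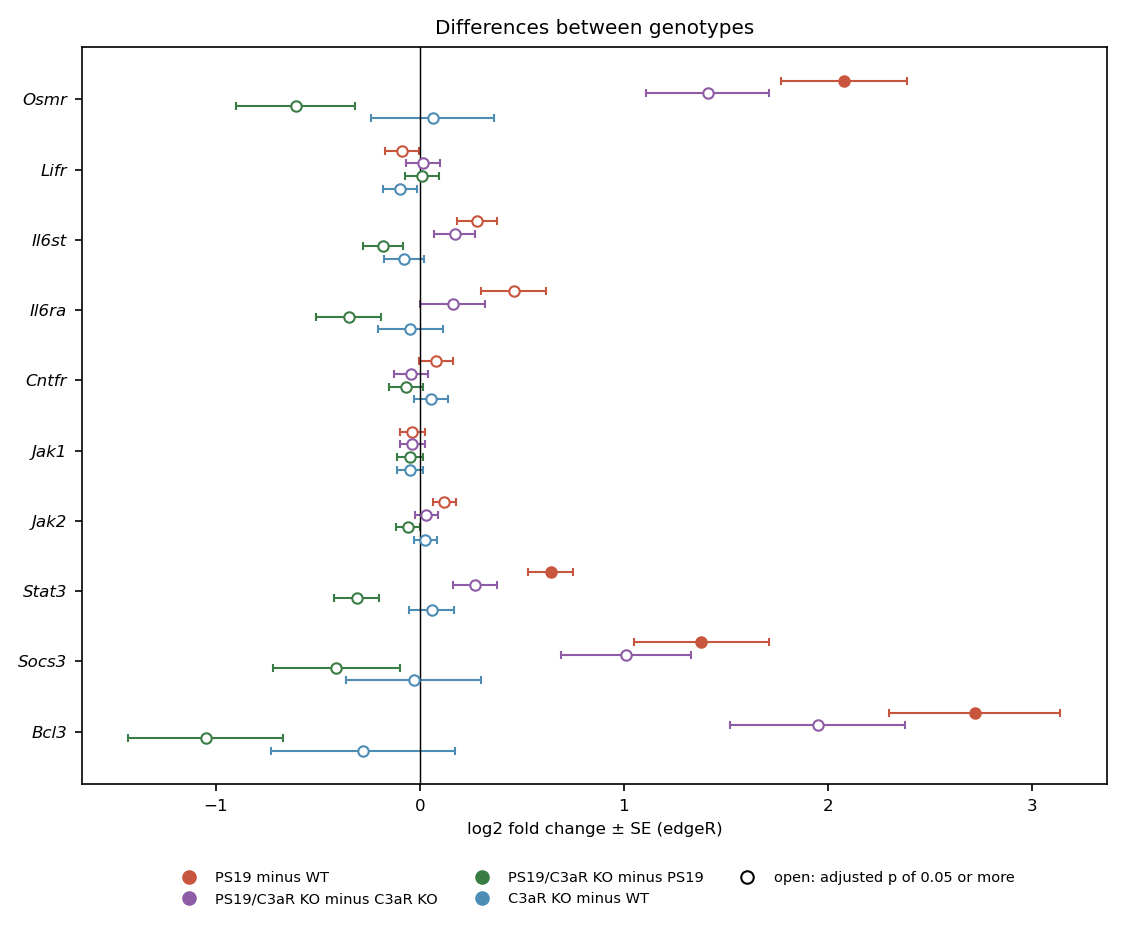
Log2 fold change ± SE by edgeR (x axis) of each gene (y axis) in 4 comparisons, 5 libraries per genotype; filled points have an adjusted p below 0.05. Filled points are Osmr (2.08), Stat3 (0.64), Socs3 (1.38) and Bcl3 (2.72), all in PS19 minus WT.

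Between the libraries labelled C3aR KO without the tau transgene and WT, no difference passed the test in any of the 10 genes. By edgeR 0 of 10 passed after adjustment, 0 at an unadjusted p below 0.05, and 0 by DESeq2. Over all genes 0.06% were called after adjustment and 6.0% were below an unadjusted 0.05. The log2 fold changes ran from -0.28 ± 0.45 (SE) for Bcl3 to 0.06 ± 0.30 (SE) for Osmr, and the groups overlapped in all 10. Stat3 was at 60.4, 52.3, 55.2, 60.5 and 57.3 CPM in these libraries and Osmr at 8.68, 6.37, 8.66, 9.11 and 7.62 CPM, close to the WT values. Standard errors of 0.30 to 0.45 for Osmr, Socs3 and Bcl3 leave room for moderate differences that this design would miss.

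Among tau transgenic libraries, those labelled PS19/C3aR KO had lower mean levels of Osmr, Stat3, Il6ra, Socs3 and Bcl3 than PS19 libraries, but no gene of the 10 passed the test over all 20 libraries. By edgeR 0 of 10 were called after adjustment, 4 were lower at an unadjusted p below 0.05, and DESeq2 called 0. Over all genes 0.252% were called after adjustment, and 14.5% had an unadjusted p below 0.05. The median log2 fold change was -0.245 over the 10 genes and -0.0041 over all genes tested. None of the 10 had groups without overlap, against 2.58% of all genes. The PS19 libraries are those already set against WT above, so the comparisons share them. Of the 12 microglial markers edgeR called 0 after adjustment and 10 had an unadjusted p below 0.05. Their summed level was 444 to 706 CPM in PS19/C3aR KO against 515 to 1010 CPM in PS19, and the astrocyte sum was 8420 to 9390 against 8620 to 11500 CPM. The part of these markers in the values below was not tested.

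Stat3 in PS19/C3aR KO was at 84.7, 56.3, 71.6, 68.8 and 64.4 CPM, against 82.5, 86.6, 97.9, 97.1 and 63.2 CPM in PS19. The ranges overlapped through PS19/C3aR KO library 1 and PS19 library 5. The log2 fold change was -0.31 ± 0.11 (SE), with an adjusted p of 0.179 by edgeR.

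Bcl3 was at 2.84, 0.82, 2.67, 2.18 and 1.22 CPM in PS19/C3aR KO, below 4 of the 5 PS19 libraries in each case. Its log2 fold change was -1.05 ± 0.38 (SE), with an adjusted p of 0.206 by edgeR. Osmr was at 33.0, 14.9, 29.4, 18.5 and 11.98 CPM, spread across most of the PS19 range, and gave -0.61 ± 0.29 (SE) with an adjusted p of 0.343. The ratio of Osmr to Lifr did not separate these groups either: the log2 difference was -0.57, with a two-sided exact permutation p of 0.27, also 0.27 after adjustment over 4 tests.

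Socs3 was at 7.73, 3.86, 7.48, 5.54 and 2.42 CPM in PS19/C3aR KO, with a log2 fold change of -0.41 ± 0.31 (SE) and an adjusted p of 0.594 by edgeR. Il6ra was at 10.02, 5.98, 6.64, 6.22 and 9.10 CPM, with 3 libraries below every PS19 library, and gave -0.35 ± 0.16 (SE) with an adjusted p of 0.312. Il6st was at 97.3, 88.3, 108, 119 and 109.8 CPM, inside or below the PS19 range, and gave -0.18 ± 0.099 (SE). For Lifr, Jak1, Jak2 and Cntfr the log2 fold changes lay between -0.07 and 0.01.

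One library decided the call in this comparison. Without PS19 library 5, Stat3 gave a log2 fold change of -0.40 with an adjusted p of 0.0233 by edgeR, and Bcl3 gave -1.30 with an adjusted p of 0.0261, so 2 of the 10 fell. Over all genes 2.87% were then called. Osmr gave -0.83 with an adjusted p of 0.053. Leaving out any other single library called 0 of the 10. Without PS19/C3aR KO library 2, the lowest of its group for Stat3 and Bcl3, edgeR's adjusted p was 0.462 and 0.47. Whether PS19 library 5 differs for a technical or a biological reason was not tested.

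**Figure D3:**
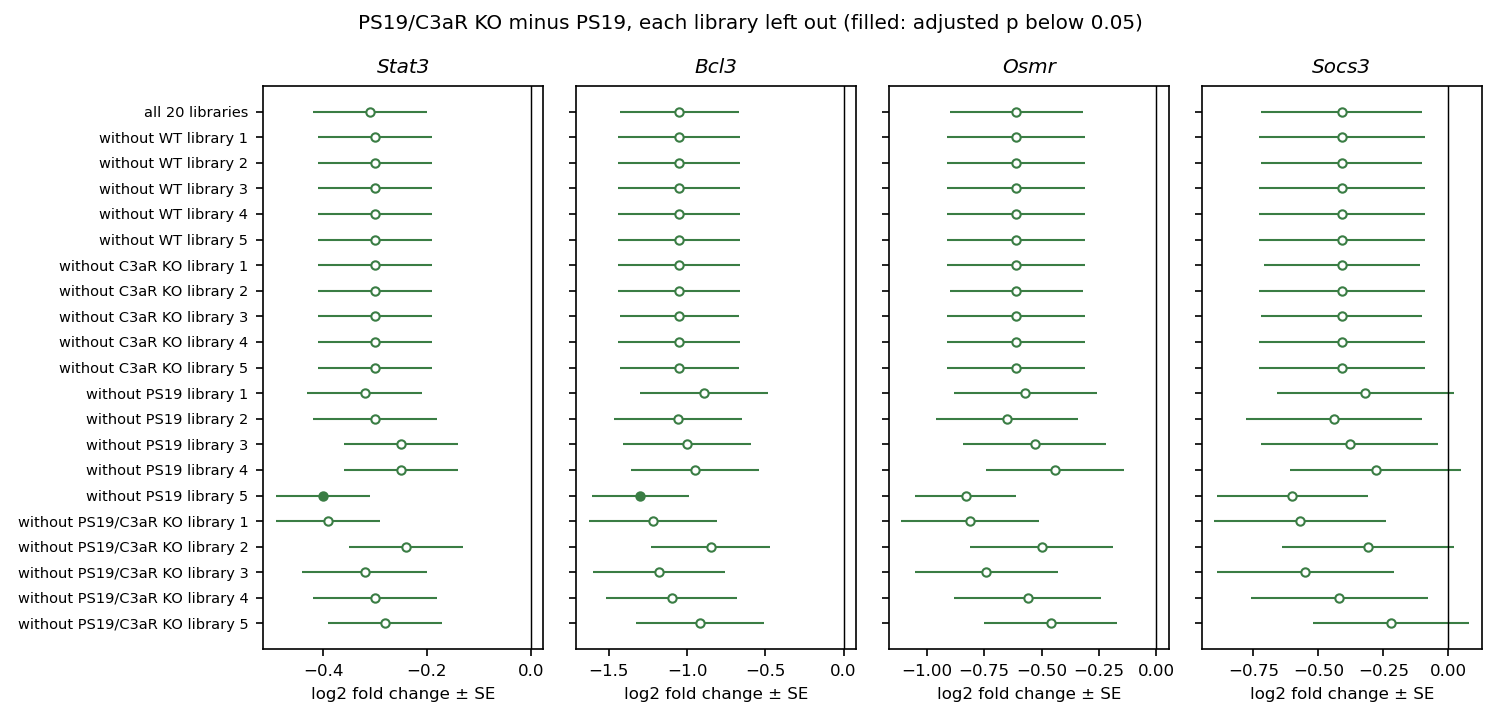
Log2 fold change ± SE by edgeR (x axis) for PS19/C3aR KO minus PS19, with all 20 libraries (top) and with each library left out (y axis); filled points have an adjusted p below 0.05. Estimates for Stat3 ran from -0.40 to -0.24 and those for Bcl3 from -1.30 to -0.85, and only the fit without PS19 library 5 gives filled points.

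Tau transgenic libraries labelled C3aR KO were also compared with the libraries labelled C3aR KO alone. Osmr and Bcl3 had higher values in every PS19/C3aR KO library than in any C3aR KO library, and Socs3 and Stat3 had higher means. By edgeR 0 of 10 were called after adjustment, 4 were higher at an unadjusted p below 0.05, and DESeq2 called 2. Over all genes edgeR called 0.006% after adjustment and 9.71% unadjusted, and DESeq2 called 0.949%. Groups did not overlap for 2 of the 10 and for 1.85% of all genes. Of the 12 microglial markers edgeR called 0 after adjustment and 9 had an unadjusted p below 0.05, with a summed level of 444 to 706 CPM in PS19/C3aR KO against 372 to 422 CPM in libraries labelled C3aR KO. Of the 12 astrocyte markers 0 were called and 3 had an unadjusted p below 0.05, with a sum of 8420 to 9390 against 7890 to 8810 CPM. The part of these markers in the values below was not tested.

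Osmr gave a log2 fold change of 1.41 ± 0.30 (SE) between these labelled groups, with an adjusted p of 0.0942 by edgeR and 0.00115 by DESeq2. Bcl3, which was at 0.40, 0.56, 0.24, 0.50 and 0.77 CPM in libraries labelled C3aR KO, gave 1.95 ± 0.43 (SE), with an adjusted p of 0.0942 by edgeR and 0.00221 by DESeq2. Socs3, at 1.53, 2.96, 3.90, 2.08 and 2.96 CPM in those libraries, gave 1.01 ± 0.32 (SE) with an adjusted p of 0.261 by edgeR. Stat3 gave 0.27 ± 0.11 (SE) with an adjusted p of 0.359. The calls of Osmr and Bcl3 turned on single libraries. PS19 library 5 belongs to neither group but enters the filter, the scaling and the shared estimate of the spread. Without it Osmr and Bcl3 rose (adjusted p by edgeR of 0.0175 and 0.0207), and 0.627% of 16756 genes were called. Without PS19/C3aR KO library 2 both rose (adjusted p of 0.0438 and 0.0367), and without PS19/C3aR KO library 5 Osmr alone rose (adjusted p of 0.0481). The Osmr to Lifr ratio differed by 1.30 on the log2 scale, with a two-sided exact permutation p of 0.00794, the smallest possible. After adjustment over 4 tests the p was 0.0159. Osmr alone already had no overlap and Lifr gave 0.016 ± 0.083 (SE), so the ratio repeats the Osmr result and adds no separate support.

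The difference between the tau transgene's effect in libraries labelled C3aR KO and in the others was tested directly as an interaction. By edgeR 0 of 10 genes passed after adjustment, Stat3 alone had an unadjusted p below 0.05, and DESeq2 called 0. Over all genes 0.012% passed after adjustment and 4.15% unadjusted. Stat3 gave -0.36 ± 0.15 (SE, log2) with an unadjusted p of 0.0256 and an adjusted p of 0.9995 by edgeR. Bcl3 gave -0.77 ± 0.59 (SE), Osmr -0.67 ± 0.42 (SE), Socs3 -0.38 ± 0.46 (SE) and Il6ra -0.30 ± 0.22 (SE). Adding the Rn45s share to the model turned the sign for Bcl3 (0.037) and Socs3 (0.33), while Osmr gave -0.37 and Stat3 -0.27. A different response of these genes to the transgene by C3aR label was therefore not shown. Standard errors of 0.42 to 0.59 for Osmr, Socs3 and Bcl3 are too wide for even a moderate difference to be seen. Differences as large as those estimated here did not pass the test.

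**Figure D4:**
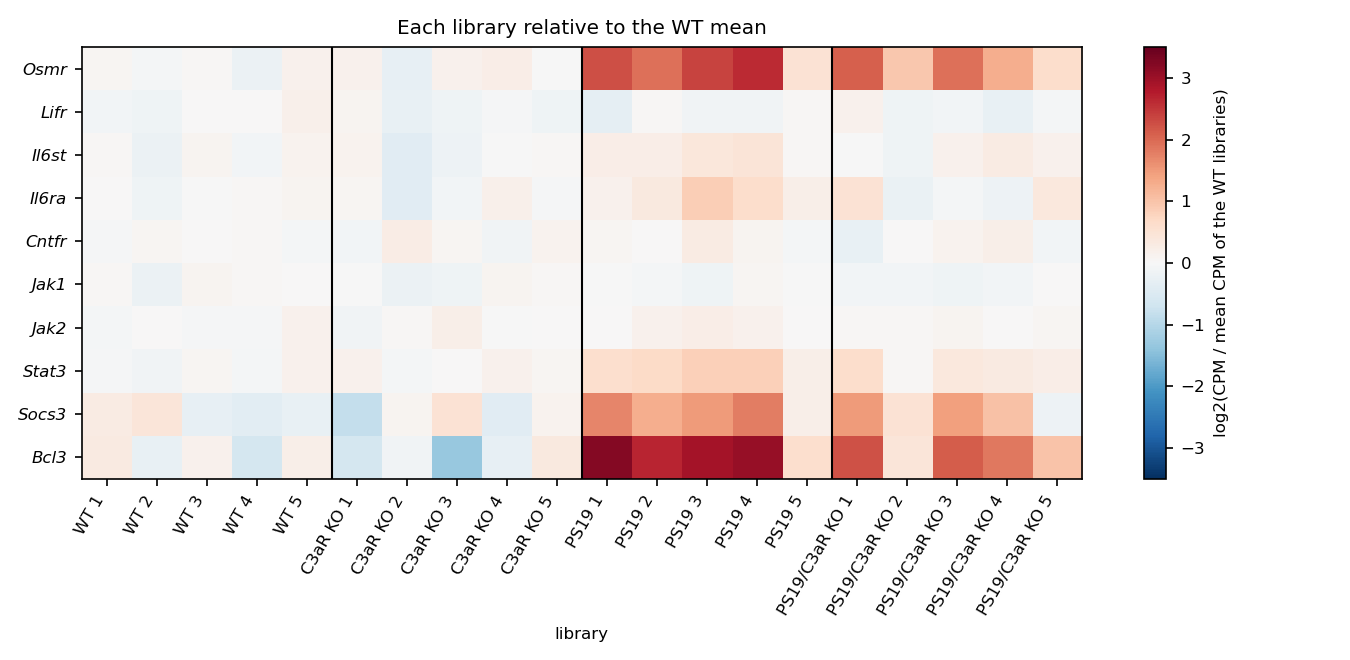
Log2 of CPM over the mean of the WT libraries (colour scale, red higher and blue lower) for the 10 genes (y axis) in each library (x axis), with lines between genotypes. Osmr, Stat3, Socs3 and Bcl3 are red in PS19 libraries 1 to 4 and paler in PS19 library 5, where Osmr was at 10.97 CPM and Bcl3 at 0.92 CPM.

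The levels of the genes were compared with one another as CPM per kilobase of exon. The length joins all GENCODE exons of a gene, and the annotation release behind the counts is not given. The order between genes therefore depends on that choice of length. In WT, Jak1 and Cntfr were highest at 29.9 ± 2.36 and 28.9 ± 1.16 CPM per kb (SD, n = 5), within each other's spread. Il6st at 8.83 ± 0.794, Jak2 at 8.80 ± 0.556 and Lifr at 7.39 ± 0.631 CPM per kb (SD, n = 5) came next. Stat3 followed at 5.76 ± 0.417 CPM per kb (SD, n = 5), below the lowest Lifr library. Socs3 at 0.949 ± 0.252, Il6ra at 0.812 ± 0.0556, Osmr at 0.640 ± 0.0584 and Bcl3 at 0.247 ± 0.0614 CPM per kb (SD, n = 5) were lowest, with Socs3 and Il6ra overlapping.

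In PS19 that order changed in the lower part. Stat3 at 8.97 ± 1.48 CPM per kb (SD, n = 5) overlapped with Jak2 at 9.54 ± 0.662 and lay above the mean of Lifr at 6.95 ± 0.682. Osmr, at 2.71 ± 1.15 CPM per kb, and Socs3, at 2.48 ± 0.865, overlapped, and both means lay above that of Il6ra at 1.12 ± 0.241. Bcl3 at 1.62 ± 0.747 CPM per kb overlapped with all 3. Lifr thus remained the more abundant receptor transcript per kb than Osmr in every group mean.

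Other genes of the route were taken from a list of 77, of which 73 were tested. One of them, Osm, reached the filter's level of 0.258 CPM in 0 WT libraries, 0 libraries labelled C3aR KO, 3 PS19 and 2 PS19/C3aR KO libraries. It thus entered the test only through tau transgenic libraries and is left out of the counts that follow. In PS19 against WT 29 of the other 72 rose and 0 fell by edgeR, with a median log2 fold change of 0.315. Over all genes 7.5% were called higher and 10.8% in either direction. The same shares stand beside the counts by list below, again as a description, since the lists were also chosen with earlier results known. With the Rn45s share as a covariate 10 of the 72 were called, where 2.59% of all genes were. In each of the other 4 comparisons, the interaction included, edgeR called 0 of the 72 after adjustment. Unadjusted p fell below 0.05 for 1 in C3aR KO minus WT and 6 in the interaction, against 6.0% and 4.15% of all genes. It did so for 21 in PS19/C3aR KO minus PS19 and 21 in PS19/C3aR KO minus C3aR KO, against 14.5% and 9.71%. DESeq2 called 3 in PS19/C3aR KO minus PS19, all lower, where it called 2.64% of all genes, and 7 in PS19/C3aR KO minus C3aR KO, all higher, where it called 0.949%. Without PS19 library 5 edgeR called 6 in each of those 2 comparisons, again all lower and all higher. Over all genes it then called 2.87% and 0.627%.

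Among the ligands, Osm aside, 3 of 6 rose in PS19. Lif, the ligand of Lifr, rose by a log2 fold change of 1.24 ± 0.29 (SE) with an adjusted p of 0.00934 by edgeR. Osm, the ligand of Osmr, had 2 to 6 counts per WT library and 5 to 22 per PS19 library, which is given as a description. Clcf1, a cytokine that signals through the Cntfr complex, and Ebi3, a subunit of interleukin 27, rose by 1.42 and 1.44. Il6, Cntf, Il27 and Il31 had too few counts to be tested, with Il6 at no more than 4 counts in any library.

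Other cytokine receptors rose at 8 of 13. Csf2rb, the shared beta chain of the GM-CSF receptor family, rose by a log2 fold change of 1.81 ± 0.25 (SE), from 1.47 ± 0.173 to 5.15 ± 1.97 CPM (SD, n = 5). Csf3r, the G-CSF receptor gene, rose by 1.65 ± 0.26 (SE). S100a8 and S100a9 are genes of neutrophils, which also make Csf3r. They summed to 30.8 CPM in PS19 library 3 and to no more than 1.98 CPM in any other library. Csf3r ranged from 9.99 to 34.1 CPM in PS19 with a median of 27.2. In WT it ranged from 6.44 to 10.1 CPM with a median of 7.44. The part of neutrophils in the Csf3r result was not tested. Ifngr1, a chain of the interferon gamma receptor, and Il11ra1, which binds interleukin 11, rose by 0.38 and 0.42.

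Among the other JAK and STAT genes, the haematopoietic kinase gene Jak3 rose by a log2 fold change of 0.65 and Stat5a by 0.61. Inhibitors rose at 3 of 17. The leukocyte phosphatase genes Ptprc and Ptpn6 rose by 1.82 and 1.46, and Socs6 by 0.21. Microglia express Ptprc, Ptpn6 and Csf2rb, and the microglial marker sums given above were also higher in PS19. The part of microglia in these results was not tested.

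Genes known to respond to STAT3 rose at 12 of 28, with a median log2 fold change of 0.36 over the list. Gfap rose by 2.42 ± 0.29 (SE), from 401 ± 80.8 to 2148 ± 749 CPM (SD, n = 5), with an adjusted p of 0.000163 by edgeR. Vim, another intermediate filament gene, rose by 1.73, the hyaluronan receptor gene Cd44 by 1.61, and the survival gene Mcl1 by 0.35. In PS19/C3aR KO libraries Gfap was at 1153 ± 503 CPM and Vim at 90.7 ± 33.98 CPM (SD, n = 5), between the labelled C3aR KO and PS19 means, and neither differed from PS19 after adjustment (adjusted p by edgeR of 0.141 and 0.229).

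**Figure D5:**
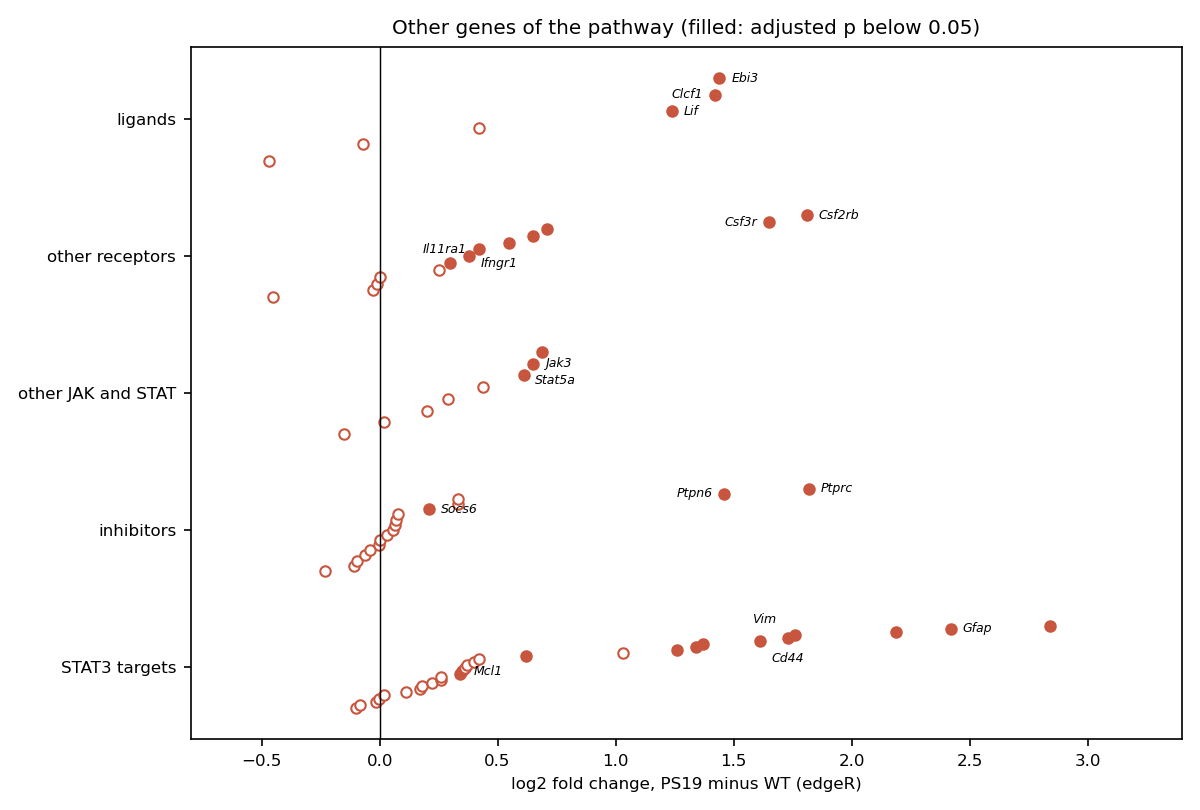
Log2 fold change by edgeR, PS19 minus WT (x axis), of 72 genes of the wider route (Osm is not plotted), by role (y axis); each point is a gene, and filled points have an adjusted p below 0.05. Filled points number 29 and all lie above 0, with Gfap at 2.42.

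Stat3 was last compared with every other gene by how libraries of the same genotype varied around their mean, over 20 libraries and 13436 genes with a mean log2 CPM of at least 1. The 5 genes most like it were Vim (Pearson r of 0.925, Spearman rho of 0.902), C4b (0.910, 0.866), Pros1 (0.908, 0.836), Tns2 (0.899, 0.890) and Ctsh (0.897, 0.812). C4b encodes complement component C4 and has a near-identical copy, so its counts are uncertain. Among the 10 genes r was 0.873 for Osmr, 0.777 for Bcl3, 0.696 for Il6ra, 0.628 for Il6st and 0.471 for Socs3, while Jak1 was at 0.111 and Cntfr at -0.08. Without PS19 library 5 and PS19/C3aR KO library 1, the libraries farthest from the median for Stat3, r was 0.863 for Vim. The order among the 10 genes then turned, with Il6st at 0.766, Osmr at 0.745, Il6ra at 0.639, Bcl3 at 0.604 and Socs3 at 0.13. These values describe shared variation between libraries, which also share depth and tissue composition.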

How the data were processed

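Per the labels' protocols, RNA from RNeasy columns was sequenced as 76-nt pairs, TopHat 2.0.9 aligned them to mm10, and htseq-count assigned them to genes by their exons. The deposited files hold the authors' raw counts, not normalized, for 24513 genes. Each file ends with 5 summary lines that name no gene, which entered neither library sizes nor tests. The largest, pairs outside annotated exons, equalled 17.4 to 25.4% of uniquely aligned pairs. For the strand setting and the annotation release the sources used here give nothing. DESeq2 appears among the tools, per the submitters' processing notes, with no stated use.

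Sample titles gave groups and replicate numbers. A single quasi-likelihood model (edgeR 4.0.16, R 4.3.3) was fitted to all 20 libraries by genotype alone, with TMM normalization and filterByExpr (minimum count 10, minimum total 15), leaving 16657 genes, and gave all 5 comparisons. P-values were adjusted by Benjamini-Hochberg within a comparison, with a threshold of 0.05. The SE is the log2 fold change over the square root of F. CPM use TMM-normalized library sizes. The procedure was tried on simulated data.

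The genes and lists (5 of the pathway, 10 of cell type markers) were chosen with earlier results of these data known. Named were the 10 genes, up to 4 called genes per pathway list with the lowest p, the 5 genes most like Stat3, and Gfap, Vim, Aif1, Cx3cr1, Ttr, Rn45s, C3ar1, Prnp and Mapt as checks. One gene that this rule names is not reported here. S100a8 and S100a9 were named after their values were seen. Alternatives were DESeq2 1.42.0 and its size factors, no filter, a filter of 1 CPM in 5 libraries, a replicate block, the Rn45s share or a choroid plexus score as covariate, each library left out, and, chosen after seeing the data, fits to the libraries of 2 groups alone. Markers called in PS19 minus WT, beside those in the report, were 0 of 6 tested for leukocytes, 0 of 10 for endothelium, 0 of 10 for mural cells and fibroblasts, 0 of 12 for choroid plexus, 0 of 6 for ependyma, 3 of 10 for oligodendrocytes and 1 of 6 for their precursors, and the 4 called were higher. Ttr, a choroid plexus gene, had a log2 fold change of 1.05 ± 1.57 (SE). Mapt, the mouse tau gene, gave 0.23 ± 0.044 (SE) and was called higher, with an adjusted p of 0.00193 by edgeR. Whether reads of the human tau transgene were counted in Mapt was not tested. Positions and promoters are from RefSeq GRCm38.p6, and exon lengths from GENCODE on the same build.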

Additional observations from a re-analysis of the deposited data

Results flagged for a closer look

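Jak1 in WT library 2 was at 186.6 CPM, while the other 4 WT libraries ranged from 218.9 to 230.1 CPM. The gap was 0.742 of the group's range, above the critical value of 0.71 for 5 libraries. This was 1 of 40 groups of the 10 genes that were examined, and chance marks about 1 in 20.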

How the results depend on the processing

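In PS19 minus WT the count of the 10 genes called was 3 to 6 over all settings, and 4 to 6 with 1 library left out. Leaving out 1 library gave 0 to 2 calls in PS19/C3aR KO minus PS19 and 0 to 2 in PS19/C3aR KO minus C3aR KO, where DESeq2 gave 2. Of the single-gene values under alternatives, 1333 kept direction and side of the threshold, 15 passed only there, 1 lost its call and 41 changed sign, none of these last being called.

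The labels state no pairing, so replicate numbers were not taken as pairs. Correlations of the deviations of same-numbered libraries ran from -0.273 to 0.55 (median 0.14, 16 of 30 pairs over 0.1). Other pairs had a median of -0.0421, with 36 of 120 over 0.1. Of the 20 libraries 7 correlated best with their own number. Whether same-numbered libraries shared a batch was not tested. With a replicate block, 5 of the 10 genes were called in PS19 minus WT, Il6st being added (0.28, adjusted p by edgeR 0.0383), and the block changed no other call of the 10. Over all genes it called 12.6% in that comparison, against 10.8% without it, and raised the calls in PS19/C3aR KO minus C3aR KO from 1 to 22 and in PS19/C3aR KO minus PS19 from 42 to 212 genes.

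With the Rn45s share as covariate the log2 fold change changed sign for Lifr (0.028) and Cntfr (-0.02) in PS19 minus WT, for Stat3 (-0.01), Jak2 (-0.034), Osmr (-0.15), Lifr (0.017) and Cntfr (-0.039) in C3aR KO minus WT, and for Lifr in PS19/C3aR KO minus PS19 (-0.021) and PS19/C3aR KO minus C3aR KO (-0.00993). In the interaction it did so for Jak1 (-0.02), Lifr (-0.038), Socs3 (0.33) and Bcl3 (0.037). The Jak1 interaction, near 0, was also negative with DESeq2 size factors (-5e-05), without a filter (-0.00207) and by DESeq2 (-0.00016). The cause was not tested.

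With 1 library left out, values that changed sign ranged, in C3aR KO minus WT, from -0.018 to 0.07 for Jak2, -0.1 to 0.036 for Il6ra and -0.2 to 0.12 for Socs3. They ranged from -0.052 to 0.054 for Lifr in PS19/C3aR KO minus PS19, and against C3aR KO from -0.00535 to 0.08 for Jak2, -0.046 to 0.068 for Lifr and -0.094 to 0.015 for Cntfr. The Jak1 interaction ranged from -0.042 to 0.045. Low counts limit Bcl3 (9 to 37 per library labelled C3aR KO), Ebi3 (5 to 12 per WT library) and Osm (2 to 6).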
